A study of Mus musculus with 12 samples.

Results

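The genes described here encode the ciliary transition zone, the distal appendages of the mother centriole, the cap that closes that centriole before a cilium grows, and 3 proteins of the ciliary membrane. They were chosen by gene symbol, and all 32 symbols had 1 entry each among the 51826 entries of the sperm table and the 23502 entries of the testis table. RNA-seq counts were compared in 12 libraries, 3 per group. Mature sperm came from the cauda epididymis of mice at postnatal day (P) 56, either WT or Xap5l KO, a global knockout made with CRISPR/Cas9 on C57BL/6J mice. Whole testes came from mice at P16, either WT or Xap5 cKO, in which floxed Xap5 was removed by a Cre expressed from the Stra8 gene in male germ cells (Stra8-EGFPCre in the series text, Stra8-GFPCre knockin in the methods). The controls of the testis comparison are labelled WT, while the study's Results section names the controls of the cKO males as Xap5 fl/Y. The labels do not say if the sequenced controls carried the floxed allele. Somatic cells of the cKO testis keep Xap5, and their RNA was in the libraries. Xap5 and Xap5l are listed in the tables as Fam50a and Fam50b.

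A cilium or sperm flagellum grows from a mother centriole that has docked to a membrane through its distal appendages. Cep83 lies at the root of these appendages, and Cep164 at their outer end brings in the kinase Ttbk2, after which Ccp110 and Cep97, the cap proteins, leave the centriole. Above the docked centriole the transition zone gates traffic into the cilium. It is built by an MKS module, which includes the tectonics and several transmembrane proteins, and by an NPHP module, with Cep290 spanning between microtubules and membrane. Mutations in many of these genes cause Meckel, Joubert, nephronophthisis or Bardet-Biedl-type ciliopathies. Male germ cells assemble their flagellum after meiosis, and mature sperm are largely inactive in transcription, so that their RNA is mostly left over from earlier stages.

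In Xap5l KO sperm, 9 of the 32 genes (28.1%) were higher at an adjusted p under 0.05 and none was lower, beside 9.02% and 3.07% of all genes tested. In Xap5 cKO testes, 24 (75%) were lower and 1 was higher by the same test, beside 28.1% and 25% of all genes tested. Above 2-fold, 3 members (9.38%) were higher in sperm, beside 7.59% of all genes, and 13 (40.6%) were lower in testes, beside 10.9%. With each library left out in turn, the number higher in sperm at any fold ranged from 0 to 15. The 9 that rose in sperm were B9d1, Tctn1, Tctn2, Tctn3, Tmem237, Ahi1, Cep290, Cep89 and Arl13b, with log2 fold changes between 0.79 and 1.16. All of these except Tctn1 were among the 24 that fell in testes, where the falls of Rpgrip1, Ccp110, B9d1 and Cep290 had the largest fold changes. Counts were scaled to library size (CPM) with TMM factors, which equalise the bulk of genes between libraries. The test was the quasi-likelihood test of edgeR, and p-values were adjusted over all genes tested by the Benjamini-Hochberg method. A gene that passed the test is described as having risen or fallen, and a 2-fold change is named separately because the study used that threshold.

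Promoter sequences are shown first because many members share a motif at their start. RFX factors bind an inverted repeat called the X-box, and are known to act on genes of cilia. RefSeq promoter windows of GRCm38.p6, from 250 bases before to 50 bases after an annotated start, were found for 31 of the 32 members, all but Tmem67. The word GTTGCC, an arm of the X-box, was searched on both strands and was present in 15 of the 31 members (48.4%), against 14.1% of 27025 genes and 14.3% of 17492 protein-coding genes. Among protein-coding genes whose windows lay within the quartiles of the members' GC content (55.2% to 63.1%), 14.7% held it, against 9 of 18 members in that range. The full palindrome (GTTNCC and GGNAAC with 2 bases between them), which can include the same bases, was present in 3 members (9.68%), Ahi1, Mks1 and Tctn1, against 0.529% of genes. The pieces below are 30 bases each on the strand of the gene, 5′ to 3′, with the word or the palindrome in capitals (GGCAAC is the word read on the other strand). They are from the 7 genes that rose in sperm and held the word, and from Mks1.
Ahi1: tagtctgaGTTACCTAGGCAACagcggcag
Tctn1: gcgctaggctgtgactGTTGCCCGGGCAAC
Mks1: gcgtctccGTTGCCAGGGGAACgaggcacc
Tmem237: gccctagtcagcGTTGCCatggcgacgcct
Tctn2: cattgattggtgGTTGCCatggctgcaggc
Tctn3: aggctcccagcgGTTGCCaggtaacgggaa
B9d1: cgagagcctcctGGCAACagcgcgcggcct
Arl13b: acagacgctccaGTTGCCtagttaccagag

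On GRCm38.p6 these pieces lie at chr10:20952560-20952589 (Ahi1, plus strand), chr5:122264411-122264440 (Tctn1, minus), chr11:87853183-87853212 (Mks1, plus) and chr1:59120106-59120135 (Tmem237, minus). Those of Tctn2, Tctn3, B9d1 and Arl13b lie at chr5:124598750-124598779 (plus), chr19:40612354-40612383 (minus), chr11:61505152-61505181 (plus) and chr16:62847204-62847233 (minus). Of the 17 copies of the word in members' windows, 14 lay within 50 bases of the start, in 13 genes, while 35.4% of the copies in windows of protein-coding genes did. The 31 members had 40 windows, and a match in any window of a gene counted. Distances hold for these RefSeq starts, which in Nphp4 and Tmem237 lie inside the GENCODE genes whose positions are given below. Of the 9 genes that rose in sperm, 7 held the word and Cep290 and Cep89 did not, and of the 22 others with a window 8 held it. Which genes rose depended on single libraries, with 0 to 15 members higher when a library was left out. A link between the word and the rise was not tested. Of the 23 genes with a window that fell in testes, 12 held the word, as did 3 of the 8 that did not fall. Other words searched on both strands were the GC box CCCCGCCC, in 9 of 31 members (29%) and 26.2% of protein-coding genes, the forkhead word GTAAACA, in no member and 4.05% of genes, and TGACGTCA, in no member and 2.03% of genes. A match describes letters in a window, and binding was not measured here.

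**Figure D1:**
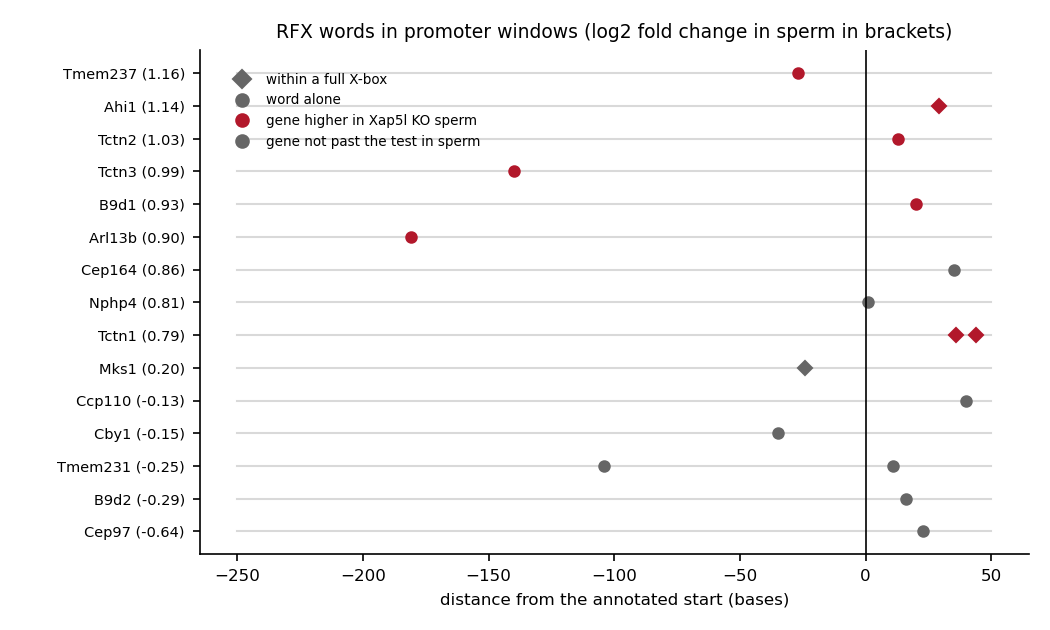
Position of each GTTGCC word (either strand) in the promoter windows of the 15 members that hold it, in bases from the annotated start, with genes ordered by their log2 fold change between Xap5l KO and WT sperm. Diamonds mark words within a full X-box, red marks genes that rose in Xap5l KO sperm, and 14 of the 17 words lie within 50 bases of the start.

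The sperm libraries held 38881197 to 52308452 counts and the testis libraries 32251198 to 36759054. All 32 members passed edgeR's filter on low counts in both tables, in which 20945 and 16821 genes were tested. Xap5l had 419 to 574 counts in WT and 8 to 23 in Xap5l KO sperm, and Xap5 had 811 to 988 counts in WT and 616 to 673 in Xap5 cKO testes. The gene that was not targeted also fell by edgeR's test in each comparison. In testes Xap5l had 197 to 539 counts in WT and 0 to 7 in Xap5 cKO (log2 fold change -6.48, adjusted p = 8.09e-05), while Xap5 changed by -0.33 (adjusted p = 0.0495). In Xap5l KO sperm the log2 fold change of Xap5 was -0.76 (adjusted p = 0.0393). Summed over its 7 markers, the elongating spermatid and sperm list reached 51183 to 127666 CPM in WT and 41590 to 79187 CPM in Xap5l KO sperm. Leukocyte markers reached 711 to 747 CPM in WT and 134 to 458 CPM in Xap5l KO sperm, and epididymal markers 5952 to 8062 and 4219 to 5876 CPM, so transcripts typical of other cells were present. Erythroid markers summed to 14656, 2932 and 4693 CPM in WT and 1094 to 3677 CPM in Xap5l KO sperm, with the first WT library far above the rest. Mitochondrial transcripts made up 19.3% to 24% of counts in WT and 10.5% to 27.4% in Xap5l KO sperm. The third WT testis library was nearer to the Xap5 cKO libraries (r of log CPM across genes 0.909 to 0.916) than the other WT testis libraries were (0.876 to 0.884). In P16 testes the late markers Prm2 and Smcp had 0 counts in every library. The series text calls the libraries of a group biological replicates without naming the animals. The p-values set the difference between genotypes against the spread between these libraries.

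Levels were compared between genes as CPM per kb of annotated exon. In WT sperm Ttbk2 was the most abundant member at 33.5 ± 14.8 CPM per kb (SD, n = 3). It was followed by Cby1 at 14.2 ± 1.69, Sclt1 at 10.6 ± 4.64 and Arl3 at 9.72 ± 1.3 CPM per kb. The spread of Sclt1 overlapped those of Cby1 and Arl3. Ttbk2 alone gave 34.6% to 45.9% of the members' counts in sperm. Of its exonic bases 29.9% are shared with Cdan1 on the same strand, and reads there cannot be assigned to either gene. At the low end, Cc2d2a, Rpgrip1l and Nphp4 lay between 0.511 and 0.619 CPM per kb in WT sperm. In WT testes the order differed. Ccp110 came first by its mean at 44.1 ± 7.04 CPM per kb, then Cby1 at 39.4 ± 6.34 and Iqcb1 at 36 ± 3.84. The spreads of Ccp110, Cby1 and Iqcb1 overlapped with each other. Cep83 and Arl3 followed at 26.8 ± 2.75 and 26.5 ± 5.94 CPM per kb. Rpgrip1 was the lowest member in WT testes at 2.01 ± 1.04 CPM per kb.

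**Figure D2:**
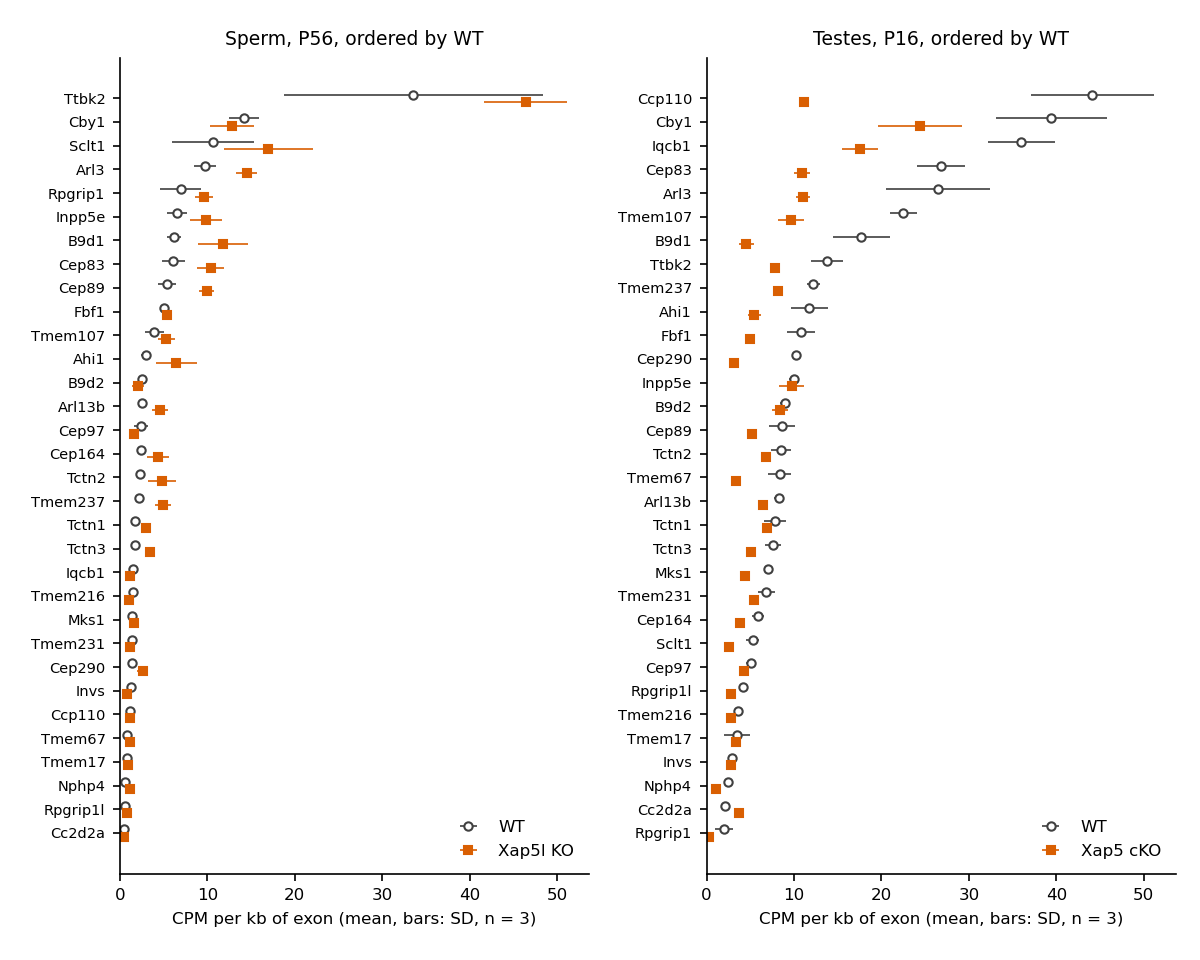
Mean CPM per kb of exon of each member in sperm (left) and testes (right), ordered by the WT mean, with bars for the SD of 3 libraries, open circles for WT and filled squares for the mutant. Ttbk2 stands first in WT sperm at 33.5 CPM per kb, and Ccp110 stands first in WT testes at 44.1 CPM per kb but not in Xap5 cKO testes.

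Among the 14 genes of the MKS module and the tectonic complex, 6 rose in Xap5l KO sperm, 3 of them above 2-fold. Tmem237, a transmembrane protein of the transition zone (chromosome 1, 59100590 to 59120408), had 6.01, 4.56 and 5.2 CPM in WT and 12.1, 13.7 and 9.42 CPM in Xap5l KO sperm. Its groups did not overlap, and the log2 fold change was 1.16 (SE 0.227, adjusted p = 0.0179). Ahi1, which encodes jouberin (chromosome 10, 20952547 to 21080429), had 25, 17.9 and 19 CPM in WT and 47.3, 60.7 and 28.3 CPM in Xap5l KO sperm. The groups did not overlap although the third Xap5l KO library lay close to the first WT library, and the log2 fold change was 1.14 (SE 0.288, adjusted p = 0.0357).

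The 3 tectonics, secreted or membrane-anchored proteins of the same complex, all rose in sperm. Tctn2 (chromosome 5, 124598749 to 124627738) had 23.8, 16.6 and 17.7 CPM in WT and 44.8, 49.6 and 24.6 CPM in Xap5l KO sperm, with a log2 fold change of 1.03 (SE 0.286, adjusted p = 0.0454). Tctn3 had 6.49, 5.73 and 4.9 CPM in WT and 10.1, 11.9 and 12.1 CPM in Xap5l KO sperm (log2 fold change 0.99, SE 0.209, adjusted p = 0.021), just under 2-fold. Tctn1 had 12.7, 14.9 and 15.9 CPM in WT and 23.5, 25.8 and 25.6 CPM in Xap5l KO sperm, with a log2 fold change of 0.79 (SE 0.19, adjusted p = 0.0314). In each of the 3 the groups stood apart, most narrowly in Tctn2. Exons of Tctn1 share 25.5% of their bases with Hvcn1 and Gm15481 of the opposite strand, and the sources do not say if counting was stranded. Exons of 8 members overlap a gene on the other strand, with shares above 5% also in Inpp5e (20.3%), Tmem237 (10.5%), Rpgrip1 (8.7%), Cep290 (7.6%), Tmem67 (5.4%) and Tmem216 (5.2%).

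B9d1, one of the B9-domain proteins (chromosome 11, 61505144 to 61512931), had 10.9, 8.48 and 10 CPM in WT and 20.7, 21.9 and 13.5 CPM in Xap5l KO sperm. Its groups did not overlap, and its log2 fold change was 0.93 (SE 0.237, adjusted p = 0.0361). The other B9-domain genes did not pass the test, with log2 fold changes of 0.20 for Mks1 (SE 0.263, adjusted p = 0.616) and -0.29 for B9d2 (SE 0.298, adjusted p = 0.509). The remaining 6 genes of the module that did not pass, Tmem67, Tmem216, Tmem231, Tmem107, Tmem17 and Cc2d2a, had log2 fold changes between -0.45 (Tmem216) and 0.59 (Tmem67). The groups of Tmem67, which encodes meckelin, did not overlap (5.03 to 6.52 CPM in WT, 7.81 to 10.1 CPM in Xap5l KO sperm), and its adjusted p was 0.0937.

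Of the 6 genes of the Cep290 and NPHP module, only Cep290 passed the test in sperm. Cep290, which anchors the transition zone (chromosome 10, 100487558 to 100574840), had 18.8, 15.7 and 12.3 CPM in WT and 36.7, 30.7 and 22.7 CPM in Xap5l KO sperm. The groups were separate, and the log2 fold change was 0.95 (SE 0.247, adjusted p = 0.0386). Nphp4, a scaffold of the NPHP module, had 3.52, 3.18 and 4.51 CPM in WT and 7.11, 7.84 and 4.77 CPM in Xap5l KO sperm (log2 fold change 0.81, adjusted p = 0.0717). Invs, which encodes inversin, was the sole member of the 32 whose Xap5l KO values all lay below the WT values, at 10.2 to 16.7 CPM in WT and 8.82 to 10 CPM in Xap5l KO sperm. Its log2 fold change of -0.55 did not pass the test (adjusted p = 0.123), nor did those of Iqcb1 (-0.45), Rpgrip1 (0.47) and Rpgrip1l (0.43).

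Among the 7 genes of the distal appendage, Cep89 rose in sperm. Cep89 (chromosome 7, 35397035 to 35438689) had 33.2, 26 and 22.6 CPM in WT and 47.8, 48.1 and 55.2 CPM in Xap5l KO sperm, with a log2 fold change of 0.89 (SE 0.212, adjusted p = 0.0309). Cep164 and Cep83 came next to the threshold from the other side, with non-overlapping groups. Cep164 had 28.5, 21.1 and 22.8 CPM in WT and 41.2, 57.3 and 32.9 CPM in Xap5l KO sperm (log2 fold change 0.86, SE 0.248, adjusted p = 0.0504). Cep83 had 54.6, 42.2 and 36.2 CPM in WT and 88.4, 68 and 70 CPM in Xap5l KO sperm (log2 fold change 0.77, SE 0.228, adjusted p = 0.0553). The values of Ttbk2 overlapped, since the first WT library, at 577 CPM, lay above all Xap5l KO libraries (467 to 563 CPM) while the other WT libraries lay at 295 and 275 CPM, and its adjusted p was 0.326. Sclt1 (log2 fold change 0.67), Fbf1 (0.10) and Cby1 (-0.15) also overlapped between the groups and did not pass.

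Neither cap gene passed the test in sperm. Ccp110 lay at 7.58 to 11.6 CPM in WT and 6.5 to 10.5 CPM in Xap5l KO sperm (log2 fold change -0.13, SE 0.258, adjusted p = 0.751), and Cep97 at 13.8 to 26.7 and 11.8 to 17.2 CPM (log2 fold change -0.64, SE 0.281, adjusted p = 0.142). Of the ciliary membrane genes, Arl13b, a small GTPase of the ciliary membrane (chromosome 16, 62793685 to 62847040), rose. It had 11, 13.8 and 12.8 CPM in WT and 26.4, 25.7 and 18 CPM in Xap5l KO sperm, with a log2 fold change of 0.90 (SE 0.221, adjusted p = 0.0324). Arl3, the GTPase that Arl13b activates, had separate groups (21.1 to 27.5 and 33 to 39.1 CPM) and a log2 fold change of 0.58 with an adjusted p of 0.0785. Inpp5e, the phosphoinositide phosphatase of this membrane, had a log2 fold change of 0.59 with an adjusted p of 0.105.

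**Figure D3:**
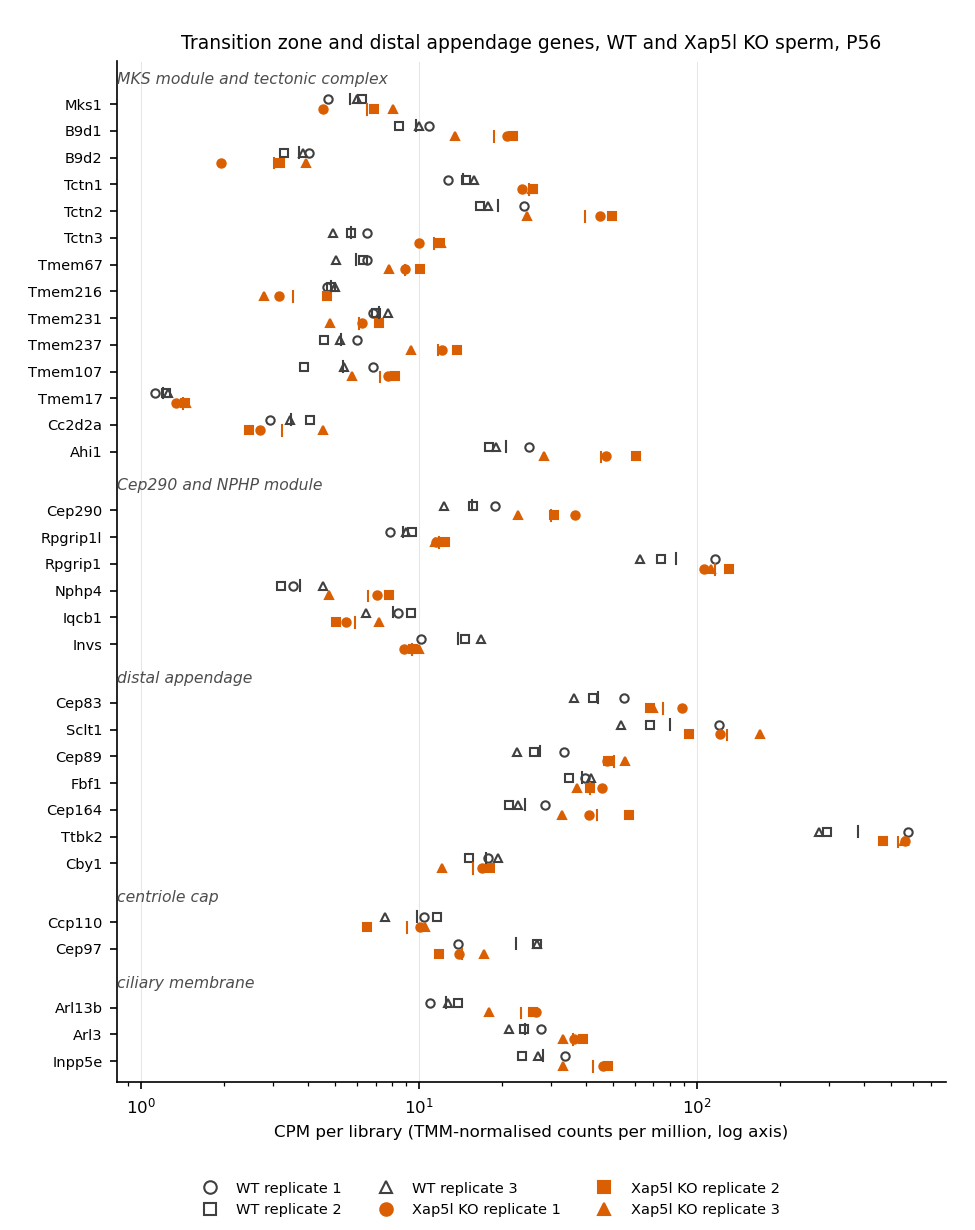
CPM of each member in the 3 WT (open) and 3 Xap5l KO (filled) sperm libraries on a log axis, with a tick for each group mean. In 16 members, Ahi1, Tctn2 and Cep89 among them, every Xap5l KO library lies above every WT library, and in Invs every one lies below. Such separation was seen in 19.2% of all genes tested in each direction.

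The 9 genes that rose in sperm were 28.1% of the members, beside 9.02% of all 20945 genes tested that rose at any fold. The 3 above 2-fold, Tmem237, Ahi1 and Tctn2, were 9.38%, beside 7.59% of all genes. No member fell by edgeR's test, beside 3.07% of all genes, and DESeq2 also gave none, but without the first WT library Invs and Cep97 fell (log2 fold changes -0.74 and -0.90, adjusted p = 0.0418 and 0.0369). At an unadjusted p under 0.05 in edgeR, 2 members (Invs and Cep97) were lower, beside 14.9% of all genes, and 16 were higher, beside 18.6%. Groups did not overlap in the direction of a rise in 16 members and of a fall in 1, beside 19.2% of all genes in each direction. The median log2 fold change of the members was 0.52 (quartiles -0.11 and 0.87), and that of all genes tested was -0.083. Summed CPM of the 32 genes were 1256, 834 and 788 in WT and 1428, 1349 and 1369 in Xap5l KO sperm. Without Ttbk2 they were 679, 538 and 513 in WT and 865, 882 and 811 in Xap5l KO sperm, and the groups stood apart with and without it.

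The count of genes that rose in sperm depended on single libraries. Without the second or the third WT library or the second Xap5l KO library it was 0, with 12 members higher at an unadjusted p under 0.05 in each case, beside 13.1% to 15% of all genes (DESeq2 was not run on these subsets). Over all genes, those 3 fits left 1 gene higher above 2-fold. Without the first Xap5l KO library 1 member rose, Tctn3, while without the first WT library 13 rose and 2 fell, and without the third Xap5l KO library 15 rose. In the 6 fits the median log2 fold change of the members stayed between 0.44 and 0.68.

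Markers of some germ cell stages moved in the same comparison. Of 6 round spermatid markers 5 rose, all above 2-fold, and their summed level was 102 to 146 CPM in WT and 222 to 384 CPM in Xap5l KO sperm. Of 7 pachytene spermatocyte markers 4 rose (Ldhc, Spag6, Adam3 and Ybx3), and the sum of all 7 was 1389 to 2314 CPM in WT and 2688 to 3420 CPM in Xap5l KO sperm. The largest part of that sum was Pgk2 (means of 1027 and 1390.0 CPM), which did not pass (adjusted p = 0.415), and Piwil1 and Mlh3 had negative log2 fold changes (-0.97 and -0.79) that did not pass either. No marker of either list was at 0. Their part in the differences of the transition zone genes was not tested, and neither was that of the leukocyte markers, whose sum was lower in every Xap5l KO library, although none of the 6 passed the test. Among the other germ cell lists, no spermatogonial and no leptotene or zygotene marker passed. Of 7 elongating spermatid and sperm markers only Akap4 passed, and it rose (log2 fold change 1.09, adjusted p = 0.0452).

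In Xap5 cKO testes, 9 of the 14 genes of the MKS module fell, 4 of them above 2-fold, and Cc2d2a rose. B9d1 had 32.5, 29.6 and 22.5 CPM in WT and 7.24, 5.93 and 8.53 CPM in Xap5 cKO testes, so that each cKO value lay far below the lowest WT value. Its log2 fold change was -1.96 (SE 0.192, adjusted p = 5.51e-05). Tmem67 (chromosome 4, 12039355 to 12090020) had 73.1, 67.9 and 53 CPM in WT and 23.5, 27.1 and 27.1 CPM in Xap5 cKO testes (log2 fold change -1.32, SE 0.131, adjusted p = 5.84e-05). The fold change of Tmem107, a transmembrane protein of the module (chromosome 11, 69070806 to 69073293), was close to it. Tmem107 had 28.6, 32.9 and 31 CPM in WT and 12.1, 11.9 and 15.6 CPM in Xap5 cKO testes (log2 fold change -1.22, SE 0.142, adjusted p = 0.000124). Ahi1 had 97, 83.6 and 67.4 CPM in WT and 43.7, 38.1 and 33.8 CPM in Xap5 cKO testes (log2 fold change -1.10, SE 0.144, adjusted p = 0.000233). In all 4 genes the groups were separate. Ahi1 was the sole member that passed 2-fold in both comparisons, upward in Xap5l KO sperm and downward in Xap5 cKO testes.

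The other 5 genes of the module that fell did so by less than 2-fold, from a log2 fold change of -0.68 in Mks1 (28.4 ± 0.349 to 17.7 ± 2.33 CPM) through -0.59 in Tctn3 and -0.58 in Tmem237 to -0.34 in Tmem231 and -0.32 in Tctn2. Tctn2 and Tmem231, with adjusted p of 0.0265 and 0.043, passed the test in only 1 of the 6 fits that left out a library. Cc2d2a, a C2-domain scaffold (chromosome 5, 43662346 to 43740972), went the other way. It had 13.8, 13.3 and 16.4 CPM in WT and 25, 22.5 and 27.6 CPM in Xap5 cKO testes, with non-overlapping groups and a log2 fold change of 0.79 (SE 0.139, adjusted p = 0.00123). B9d2, Tctn1, Tmem216 and Tmem17 did not pass, with log2 fold changes from -0.37 (Tmem216, adjusted p = 0.0971) to -0.03 (Tmem17, SE 0.314, adjusted p = 0.938).

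Of the 6 genes of the Cep290 and NPHP module 5 fell, 4 of them above 2-fold. Rpgrip1, known as a scaffold of the photoreceptor connecting cilium (chromosome 14, 52110704 to 52163546), had the largest fold change of all members. WT libraries held 1180, 1002 and 378 counts and Xap5 cKO libraries 92, 73 and 88, or 35.1, 27.5 and 10.5 CPM and 2.86, 2.14 and 2.67 CPM. The third WT library lay well below the other WT libraries and still above every cKO library, and the log2 fold change was -3.25 (SE 0.408, adjusted p = 0.000189). With each library left out in turn it lay between -3.61 and -2.89. Its paralog Rpgrip1l fell by less than 2-fold, from 61.2 ± 0.849 to 41 ± 1.78 CPM (log2 fold change -0.58, SE 0.0784, adjusted p = 0.000293).

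Cep290 had 121, 121 and 115 CPM in WT and 37.1, 30.6 and 39.8 CPM in Xap5 cKO testes. WT libraries were close together, and the log2 fold change was -1.73 (SE 0.101, adjusted p = 1e-05). Nphp4 (chromosome 4, 152476706 to 152563183) had 14, 17.4 and 13.8 CPM in WT and 7.06, 6.46 and 5.19 CPM in Xap5 cKO testes (log2 fold change -1.27, SE 0.188, adjusted p = 0.000468). Iqcb1, a partner of Cep290 (chromosome 16, 36828385 to 36872721), had 207, 205 and 170 CPM in WT and 87.6, 88.8 and 108 CPM in Xap5 cKO testes (log2 fold change -1.04, SE 0.104, adjusted p = 6.16e-05). Invs, with 32.9 ± 3.83 CPM in WT and 32.2 ± 2.94 CPM in Xap5 cKO testes, differed by less than the spread between libraries (log2 fold change -0.03, SE 0.12, adjusted p = 0.833).

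All 7 genes of the distal appendage fell in Xap5 cKO testes, and in all 7 the groups did not overlap. Cep83 (chromosome 10, 94688654 to 94790853) had 211, 202 and 173 CPM in WT and 71.9, 82.7 and 83.7 CPM in Xap5 cKO testes (log2 fold change -1.30, SE 0.093, adjusted p = 1.69e-05). Fbf1, which lies between the appendage blades (chromosome 11, 116142285 to 116168166), had 89.9, 91.8 and 68.9 CPM in WT and 37.9, 36.6 and 42 CPM in Xap5 cKO testes (log2 fold change -1.11, SE 0.12, adjusted p = 8.85e-05). Sclt1, an appendage protein that depends on Cep83 (chromosome 3, 41626720 to 41742514), had 43.8, 41.9 and 33.5 CPM in WT and 20.1, 18.5 and 20.7 CPM in Xap5 cKO testes (log2 fold change -1.01, SE 0.125, adjusted p = 0.000175). These 3 genes fell above 2-fold. The other 4 fell by less, Ttbk2 from 157 ± 20.6 to 89.4 ± 2.6 CPM (log2 fold change -0.82), Cep89 from 43.8 ± 7.42 to 26.5 ± 2.26 CPM (-0.72), Cby1, which encodes chibby, from 48.4 ± 7.78 to 30 ± 5.89 CPM (-0.69) and Cep164 from 58.9 ± 7.08 to 38.2 ± 0.902 CPM (-0.62), with adjusted p between 0.000117 (Ttbk2) and 0.00642 (Cby1).

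Of the cap genes Ccp110 fell and Cep97 did not pass the test. Ccp110 (chromosome 7, 118712552 to 118737024) had 392, 403 and 297 CPM in WT and 92.8, 88.8 and 93.8 CPM in Xap5 cKO testes (log2 fold change -1.99, SE 0.11, adjusted p = 8.8e-06). Its share of the members' counts was 16% to 17.8% in WT and 8.16% to 8.56% in Xap5 cKO testes. Cep97, its binding partner, had 46.6 ± 4.9 CPM in WT and 39.1 ± 3.86 CPM in Xap5 cKO testes, with a log2 fold change of -0.26 (SE 0.111, adjusted p = 0.082). Of the ciliary membrane genes, Arl3 (chromosome 19, 46531096 to 46573198) had 78, 70.5 and 49.5 CPM in WT and 29.7, 25.8 and 27.2 CPM in Xap5 cKO testes, a fall above 2-fold (log2 fold change -1.26, SE 0.159, adjusted p = 0.000195). Arl13b fell from 42.1 ± 2.72 to 32.9 ± 1.36 CPM (log2 fold change -0.36, SE 0.0927, adjusted p = 0.0101), and Inpp5e had 43 ± 2.38 and 41.8 ± 6.33 CPM (log2 fold change -0.04, adjusted p = 0.805).

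**Figure D4:**
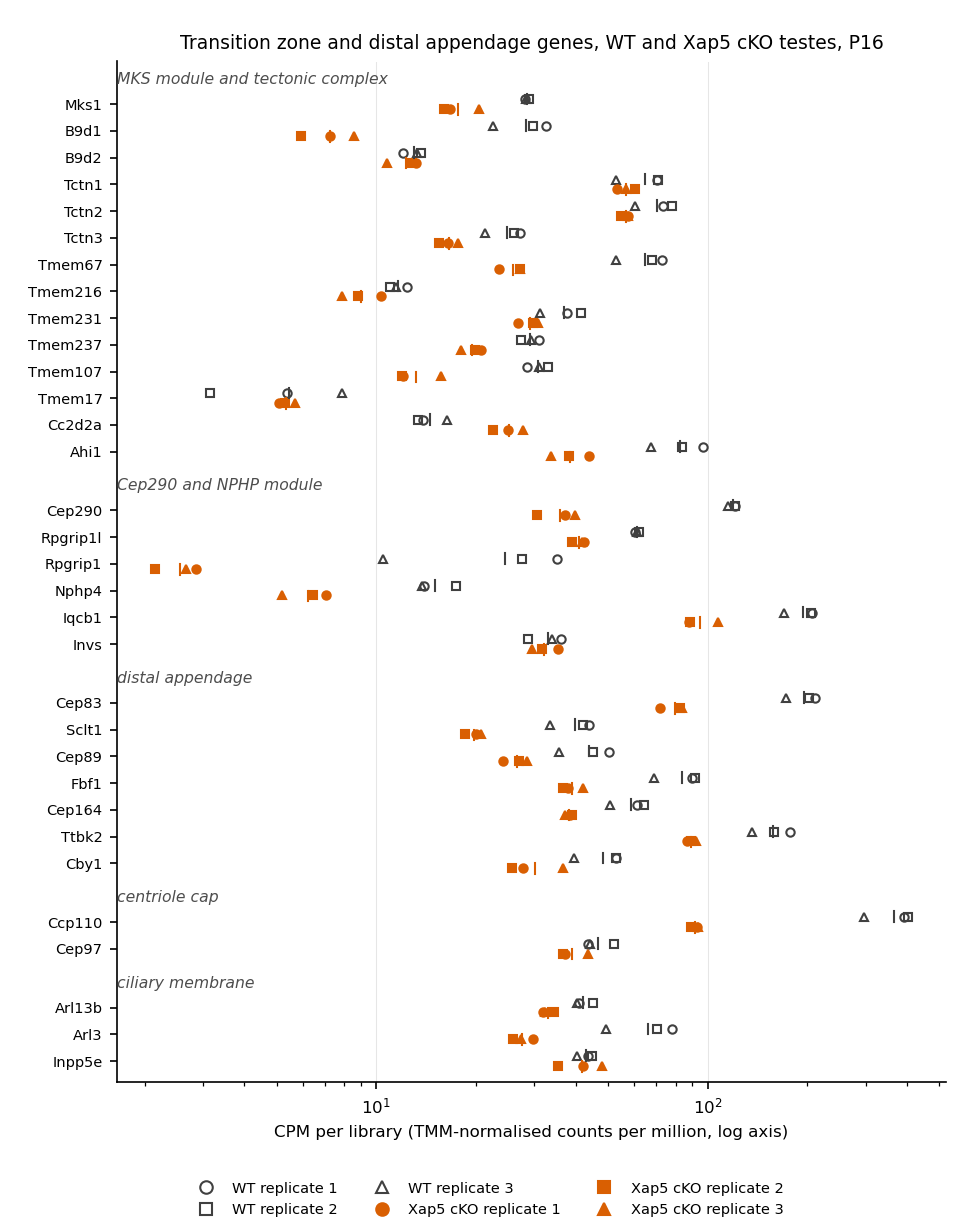
CPM of each member in the 3 WT (open) and 3 Xap5 cKO (filled) testis libraries on a log axis, with a tick for each group mean. In 26 members every Xap5 cKO library lies below every WT library, with the widest separations in Rpgrip1, Ccp110, B9d1 and Cep290, and Cc2d2a is the one member with the opposite separation. Of all genes tested, 32.4% were separate downward and 29.9% upward.

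The 24 genes that fell in testes were 75% of the members, beside 28.1% of all 16821 genes tested, and the 13 above 2-fold were 40.6%, beside 10.9% of all genes. One member rose (3.13%), beside 25% of all genes, and none rose above 2-fold, beside 4.15% of all genes. DESeq2 also gave none above 2-fold and 1 at any fold, and at an unadjusted p under 0.05 in edgeR 1 member, Cc2d2a, was higher, beside 27.9% of all genes, and 25 were lower, beside 30.5%. Groups did not overlap in the direction of a fall in 26 members and of a rise in 1, beside 32.4% and 29.9% of all genes. The median log2 fold change of the members was -0.69 (quartiles -1.23 and -0.34), and that of all genes was -0.0083. The summed level of the 32 genes was 2300, 2263 and 1859 CPM in WT and 1084, 1067 and 1150 CPM in Xap5 cKO testes. Of the 25 members that passed the test, 23 passed it in each of the 6 fits that left out a library, and 10 of the 13 above 2-fold kept that size, all but Ahi1, Iqcb1 and Sclt1.

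Whole testes were sequenced, and fewer cells of a type and less RNA per cell cannot be told apart in them. Of 7 pachytene spermatocyte markers 6 fell, with Adam3 at 0 counts in every cKO library. The remaining marker, Spag6, was among those that rose in sperm. In testes it had 1.46 CPM in WT and 1.49 CPM in Xap5 cKO and did not pass edgeR's test (adjusted p = 0.972). The sum of all 7 was 1605, 1507 and 698 CPM in WT and 141 to 170 CPM in Xap5 cKO testes. All 6 leptotene and zygotene markers fell, from 1326 to 1528 CPM to 654 to 907 CPM in sum, as did 6 of 7 spermatogonial markers. Gfra1, the remaining spermatogonial marker, rose (log2 fold change 0.56, adjusted p = 0.0321). Of 7 Sertoli cell markers 6 rose, from 4079 to 4488 CPM to 7048 to 8690 CPM in sum, and 4 of 6 leukocyte markers rose. Of the 24 members that fell, 20 had their lowest WT value in the third WT library, which was also the WT library with the lowest pachytene marker sum. Without that library 25 members fell, 13 of them above 2-fold. The part of these cell types in the members' falls was not tested.

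**Figure D5:**
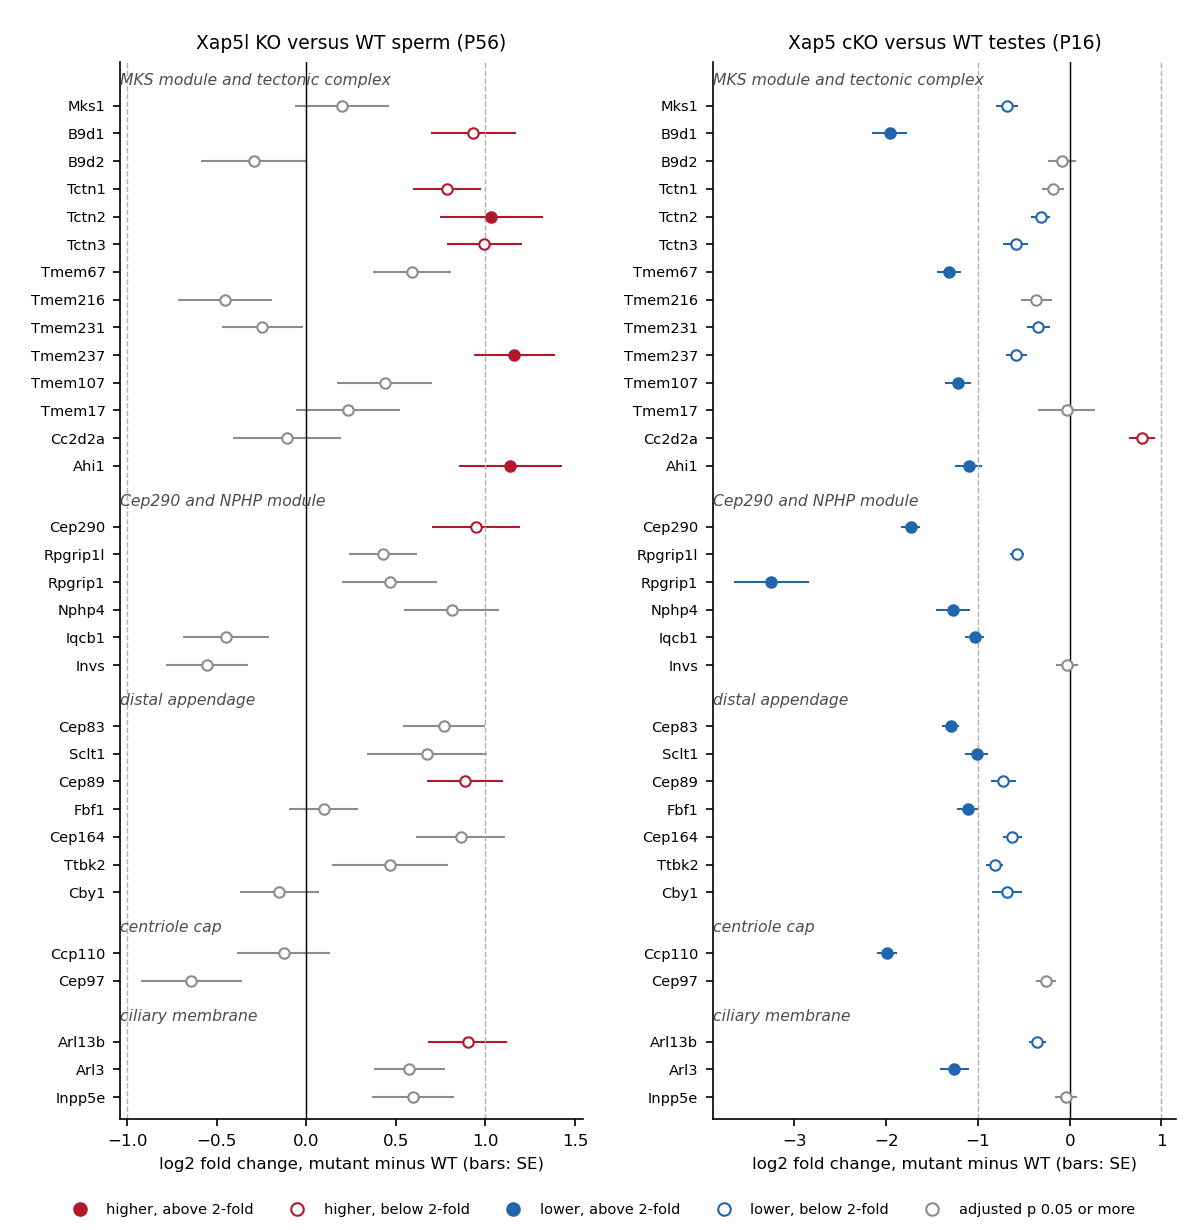
Log2 fold change of each member, mutant minus WT, with bars for the standard error, for Xap5l KO sperm (left) and Xap5 cKO testes (right). Filled points passed the test above 2-fold, coloured open points passed it below 2-fold and grey points did not pass, and 23 members lie above 0 in sperm and below 0 in testes.

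The directions in the 2 comparisons, which share no libraries, were mostly opposite. In sperm 23 members had a positive log2 fold change and 9 a negative one, while 45.7% of all genes tested were positive. In testes 1 member had a positive and 31 a negative one, while 50.5% of all genes tested were negative. The 23 positive in sperm were all negative in testes, and 8 were negative in both. As 31 of the 32 members were negative in testes, nearly any choice of members would be negative there. The overlap of signs therefore does not link the 2 comparisons gene by gene. Some genes passed the test in 1 comparison and not in the other. Ccp110 and Iqcb1, which fell above 2-fold in testes, did not pass in sperm (log2 fold changes -0.13 and -0.45), and for Tctn1, which rose in sperm, the log2 fold change in testes was -0.19 (adjusted p = 0.22). By module, the median log2 fold changes in sperm and testes were 0.51 and -0.47 for the MKS module, 0.45 and -1.15 for the Cep290 and NPHP module, 0.67 and -0.82 for the distal appendage and 0.59 and -0.36 for the ciliary membrane genes. For the cap genes both medians were negative, at -0.38 and -1.12. A difference between the 2 effects was not tested, as they come from different tissues, ages and genes removed.

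Further genes of the same structures were counted from a list of 44 symbols, of which 41 were tested in each tissue. In Xap5l KO sperm 3 rose and 1 fell, beside 9.02% and 3.07% of all genes. Ccdc92 rose from 119 ± 24 to 283 ± 108 CPM (log2 fold change 1.25, SE 0.33, adjusted p = 0.0402). Below 2-fold, the change of 2700049A03Rik was 0.87 on the log2 scale (adjusted p = 0.049) and that of Rab8a, a GTPase of membrane traffic to the cilium, was -0.79 (adjusted p = 0.0314). In Xap5 cKO testes 21 fell, beside 28.1% of all genes, and 10 of them above 2-fold, beside 10.9%. There 4 rose, beside 25% of all genes, 1 of them above 2-fold, beside 4.15%. Cep128, a gene of the subdistal appendages, fell from 62.4 ± 21.9 to 6.73 ± 0.18 CPM (log2 fold change -3.21, SE 0.259, adjusted p = 2.46e-05). Ccdc92 fell from 147 ± 36.3 to 30.7 ± 2.91 CPM (log2 fold change -2.26) and Kif24, a kinesin that acts with Ccp110, from 70.1 ± 9.65 to 19.2 ± 2.1 CPM (log2 fold change -1.87). Nin, which encodes the appendage protein ninein, rose from 10.2 ± 2.51 to 21.4 ± 6.41 CPM (log2 fold change 1.07, SE 0.262, adjusted p = 0.00747), and Unc119 and Tulp3 rose by 0.90 and 0.67 on the log2 scale. The medians over the tested genes of this list were 0.22 in sperm and -0.41 in testes. The ciliary regulator Foxj1 rose in Xap5l KO sperm (log2 fold change 2.11, adjusted p = 0.0177) and fell in Xap5 cKO testes (-1.18, adjusted p = 0.0474), and Rfx2 fell in Xap5 cKO testes (-2.55, adjusted p = 2.72e-05) and did not pass in sperm (adjusted p = 0.753).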

How the data were processed

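Poly(A) RNA of 6 sperm and 6 testis libraries was sequenced as paired-end reads. The authors aligned them to GRCm38/mm10 with HISAT2 and deposited raw gene counts (whole numbers, not normalised), with a separate table for each tissue. The submitters' processing notes name FastQC 0.11.2, Trimmomatic 0.36, HISAT2 2.1.0 and DESeq2 1.12.4. The tool that counted reads, its treatment of multimapping reads and its strand setting are not given in the sources used here. If strand was not used, reads of overlapping genes on opposite strands cannot be told apart.

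Groups were taken from the sample labels. Each tissue was analysed on its own with edgeR (filterByExpr, TMM, glmQLFit and glmQLFTest, genotype as the only term, Benjamini-Hochberg adjustment over all genes tested). Genes passed at an adjusted p under 0.05, and changes above 2-fold were counted separately. Values are CPM, means ± SD of 3 libraries, and SE belongs to the log2 fold change. With 3 against 3, an exact permutation test cannot go below p = 0.1. Library totals of 32251198 to 52308452 counts set the precision of low genes. No 2 libraries agreed within sampling noise.

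All 32 members are named, by module, with libraries' values for those that passed above 2-fold or rose in sperm. Of the other listed genes, the 3 largest passing changes in each direction are named, except 1 gene that is counted but not reported here. The members, marker lists and further genes were chosen with earlier results of these data known. Exon lengths, positions and overlaps came from GENCODE for GRCm38, and promoter windows from RefSeq. Alternatives were other filters and scalings, DESeq2, a replicate block, other thresholds, summed entries, removal of a length trend in 20 bins and leaving out each library. The code was tested on simulated data with known log2 changes of size 1.5 or 2. With sperm settings 54.5% and 81.4% of the changed genes passed, and with testis settings 81% and 93.9%. Smaller changes, such as those of the members in sperm, were not simulated. A member that did not pass is therefore not shown to be unchanged. Software was edgeR 4.0.16, DESeq2 1.42.0 and limma 3.58.1 under R 4.3.3 and, for figures and promoters, pandas 2.3.3 and matplotlib 3.10.9 under Python 3.11.15.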

Additional observations from a re-analysis of the deposited data

How the results depend on the processing

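All members had enough counts to be tested in both tissues, and the one with the fewest in sperm, Tmem17, lay at 1.12 to 1.46 CPM. In sperm, the number of members higher above 2-fold was 3, and it was 5 with no filter on low counts, 6 with TMM factors computed without mitochondrial and the 10 most abundant genes, 1 with the replicate block, 4 with DESeq2 and 0 to 9 with each library left out in turn. At any fold it was 9, and 13 with DESeq2, 2 with library size alone and 3 with the block. The replicate numbers did not pair the samples (correlations of deviations from -0.0587 to 0.141 in sperm and from -0.0117 to 0.00948 in testes), and not every sample correlated best with its own number. In testes, 24 members were lower and 1 higher at any fold, with 23 lower under the block, where Tmem231 was lost (adjusted p = 0.0695), and 22 to 25 with a library left out. The number lower above 2-fold was 13 in every setting that kept all libraries, and it was 10 to 13 with a library left out. The difference of the members' median log2 fold change from that of all genes ranged from -0.78 to -0.61 with a library left out in testes. Members whose direction turned were ones that did not pass the test. With a library left out, log2 fold changes ranged from -0.36 to 0.055 for Cc2d2a, from -0.29 to 0.063 for Ccp110 and from -0.26 to 0.083 for Cby1 in sperm, and from -0.31 to 0.33 for Tmem17, from -0.12 to 0.038 for Invs and from -0.15 to 0.080 for Inpp5e in testes, where the block gave 0.054 for Tmem17. The cause was not tested. Of 256 values of members under settings that kept all libraries in sperm, 233 kept their direction and side of the threshold, 13 no longer passed and 10 newly passed, and of 256 in testes 254 kept both. With a library left out, 138 of 192 in sperm and 175 of 192 in testes kept both.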
